A study of Mus musculus with 9 samples.

Results

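The genes described are the CXC chemokine ligands Cxcl1, Cxcl2, Cxcl3, Cxcl9, Cxcl10, Cxcl12, Cxcl14 and Cxcl16, chosen by gene symbol, 8 of the 53801 genes in the count table. RNA was sequenced from CD11b+ cells, sorted from the hemisphere that bore the tumor, of male C57BL/6J mice aged 10 to 12 weeks at the start, which had all been implanted with GL261 glioma cells carrying tdTomato and luciferase. CTR mice received saline (2 libraries). OAT-1746 mice received an oral arginase inhibitor of that name by gavage, 50 mg/kg per dose and 2 doses a day from day 1 after implantation (2 libraries). Anti-PD-1 mice received an antibody against the checkpoint receptor PD-1 by intraperitoneal injection, 2.5 mg/kg each time, at days 8, 10, 12 and finally 14 (2 libraries), and COMB mice received both agents (3 libraries). The methods place the collection of the cells at day 28 and a legend places it at day 21. For anti-PD-1 replicate 2 the deposited treatment entry gives a different antibody target from the title, and the title was used to group it. Library totals ranged from 13048075 to 18796479 counts. The comparisons ask how each treatment differs from CTR, how COMB differs from each agent alone, and, through the interaction, whether the effect of OAT-1746 differs between mice with and without the antibody.

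CXC chemokines are small proteins that bind G protein-coupled receptors and guide the movement of leukocytes. Cxcl1, Cxcl2 and Cxcl3 attract neutrophils through Cxcr2 and are classic targets of NF-kB, the transcription factor family activated by Tnf, Il1b and microbial products. Cxcl9 and Cxcl10 are induced by interferons and attract T cells and NK cells through Cxcr3. Cxcl12 acts through Cxcr4 and retains blood cell precursors in their niches, Cxcl16 is made as a membrane protein whose shed form attracts cells bearing Cxcr6, and Cxcl14 is made by many tissues without stimulation. In gliomas, CD11b+ cells are mostly resident microglia and macrophages derived from blood monocytes.

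Expression is given as CPM, counts per 1000000 counts of the TMM-scaled library. Itgam, which encodes CD11b, lay between 294 and 446 CPM in the 9 libraries. The 6 monocyte and macrophage markers, led by Tgfbi, were all detected in every library and summed to 7249 and 6592 CPM in CTR, 5018 and 618 in OAT-1746, 5852 and 7597 with anti-PD-1, and 4790.3, 7550.5 and 7766 in COMB. OAT-1746 replicate 2 thus held the lowest monocyte and macrophage sum. It also stood apart across all 12538 genes tested: its Pearson r of log2 CPM with the other libraries ran from 0.911 to 0.956, while each of the other libraries reached at least 0.976 with some library. That r is across genes, which are not independent replicates. The microglia marker P2ry12 was at 1376 and 2309 CPM in CTR, 3488 and 4726 in OAT-1746, 1802 and 1534 with anti-PD-1, and 2539, 1698 and 1612 in COMB. Tmem119, also made by microglia, was at 1436 and 2510 CPM in CTR, 3342 and 4098 in OAT-1746, 2185 and 1982 with anti-PD-1, and 2795, 2401 and 2151 in COMB. Both OAT-1746 libraries were above the other 7 for these genes, and the part of the cell mixture in the differences between groups was not tested. Neutrophil markers (9 genes, led by Csf3r) summed to 321 to 718 CPM, border-associated macrophage markers to 442 to 610, oligodendrocyte markers to 209 to 355, endothelial markers to 120 to 183, astrocyte markers to 61.0 to 199, dendritic cell markers to 61.7 to 122, pericyte and fibroblast markers to 8.94 to 29.7, T cell markers to 6.80 to 12.4 and B cell markers to 0 to 2.69. NK cell markers (5 genes, led by Gzma) summed to 25.0 and 24.2 CPM in CTR, 37.5 and 11.7 in OAT-1746, 155 and 76.8 with anti-PD-1, and 33.8, 70.7 and 75.3 in COMB. In these bulk libraries, fewer cells of a type and less RNA per cell cannot be told apart.

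Per kilobase of exon, the mean level over the 9 libraries was 322 CPM for Cxcl9, 233 for Cxcl16, 157 for Cxcl10, 13.3 for Cxcl2, 2.34 for Cxcl14, 1.76 for Cxcl12, 0.804 for Cxcl1 and 0.0981 for Cxcl3. The interferon-induced ligands and Cxcl16 were therefore far above the neutrophil-attracting ligands in these cells. Per kilobase, Cxcl9 exceeded Cxcl16 in 9 of 9 libraries, but within each group the ranges of the pair overlapped. Cxcl10 lay below Cxcl16 without overlap in CTR and COMB and overlapped it in OAT-1746 and anti-PD-1. Cxcl2 was below those 3 and above the remaining 4 ligands in every library. Cxcl14 and Cxcl12 overlapped in every group except CTR, and Cxcl12 and Cxcl1 overlapped in CTR and OAT-1746. Cxcl1 (4 to 60 counts per library) and Cxcl3 (1 to 13 counts) were near the count floor, with some library under 10 counts. Cxcl3 did not pass the filter on low counts, so 7 of the 8 ligands entered the tests.

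**Figure D1:**
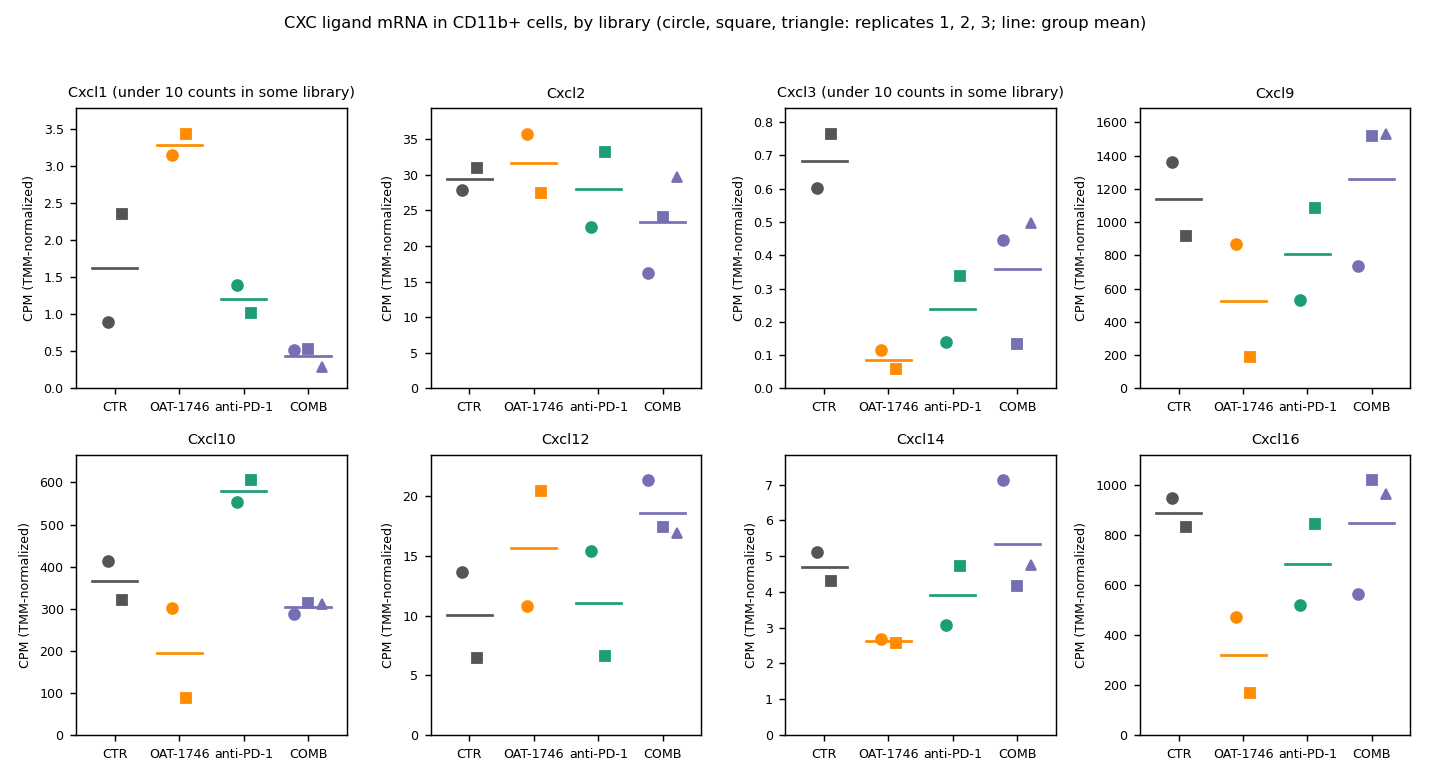
CPM of the 8 ligands in each library (y axis, scaled per gene) by group, with a line at the group mean. Both OAT-1746 libraries are the lowest pair for Cxcl16 and Cxcl14, the 3 COMB libraries are the lowest for Cxcl1, and both anti-PD-1 libraries are the highest for Cxcl10.

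The neutrophil-attracting genes lie close together on chromosome 5 of GRCm38: Cxcl3 at chr5:90786103-90789600, Cxcl1 at chr5:90891241-90893115 and Cxcl2 at chr5:90903871-90905938, all on the plus strand. Stretches before their starts are shown because all 3 hold the same 9 letters, GGAATTTCC, within 100 bases of the start. They are taken from RefSeq promoters (GRCm38.p6, plus strand) at chr5:90891135-90891240, chr5:90903789-90903870 and chr5:90785991-90786100. The stretches of Cxcl1 and Cxcl2 end before the annotated gene, 4 and 28 bases short of the RefSeq start site, and that of Cxcl3 ends at it. Capitals mark GGAATTTCC, the exact form searched as an NF-kB-like motif, at -70 to -62 in Cxcl1, -96 to -88 in Cxcl2 and -72 to -64 in Cxcl3, counted from the RefSeq start site and not from the end of the stretch shown.
Cxcl1: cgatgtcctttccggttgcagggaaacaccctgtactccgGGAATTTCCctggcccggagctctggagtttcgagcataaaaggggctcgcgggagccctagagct
Cxcl2: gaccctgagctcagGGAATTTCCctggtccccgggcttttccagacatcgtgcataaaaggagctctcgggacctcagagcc
Cxcl3: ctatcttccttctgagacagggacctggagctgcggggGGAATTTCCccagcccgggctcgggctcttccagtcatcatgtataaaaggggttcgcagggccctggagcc
Both strands of the 250 bases before each start were searched, and 7 of the 8 ligands had an entry (all but Cxcl16). GGAATTTCC was found in 94 of 32851 promoters (0.286%), and the looser GGNNNTTCC, which includes it, in 15.7%. A match is a description of letters, not a site shown to be bound.

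Cxcl1, a neutrophil attractant, was at 0.901 and 2.35 CPM in CTR, 3.14 and 3.43 in OAT-1746, 1.39 and 1.01 with anti-PD-1, and 0.519, 0.528 and 0.284 in COMB. In counts, these were 15 and 40 in CTR, 54 and 60 in OAT-1746, 20 and 18 with anti-PD-1, and 7, 8 and 4 in COMB. The OAT-1746 libraries were the highest and the COMB libraries the lowest of the 9, with no overlap between either of them and the rest. The group means were 1.63 ± 1.03 CPM (SD, n = 2) in CTR, 3.29 ± 0.205 (n = 2) in OAT-1746, 1.20 ± 0.268 (n = 2) with anti-PD-1 and 0.444 ± 0.139 (n = 3) in COMB. Cxcl1 fell in COMB relative to OAT-1746, with a log2 fold change of -2.87 (SE 0.50, edgeR adjusted p = 0.0196), in 3 of 3 COMB libraries. DESeq2 gave an adjusted p of 0.00011 for the same comparison. The edgeR call was lost without OAT-1746 replicate 2 (log2 fold change -2.79, adjusted p = 0.116), without COMB replicate 2 (-3.02, 0.0876) and without COMB replicate 3 (-2.63). It was also lost when only the groups compared were fitted (-2.86, 0.0668) and with a block for replicate number (-2.64, 0.217), and the gene could not be tested when every library had to hold 10 counts. Against CTR, the log2 fold change was 1.01 (SE 0.50) for OAT-1746, -0.44 (SE 0.53) for anti-PD-1 and -1.86 (SE 0.52) for COMB, and edgeR's adjusted p was 0.192, 0.974 and 0.673. These depended on the CTR libraries, with OAT-1746 at 0.49 and COMB at -2.36 without CTR replicate 1, and 1.85 and -1.01 without CTR replicate 2. The interaction of -2.43 (SE 0.73) had an unadjusted p = 0.00899 and an adjusted p = 0.112 in edgeR.

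Cxcl2, which acts on the same receptor, was at 27.8 and 31.0 CPM in CTR, 35.7 and 27.4 in OAT-1746, 22.6 and 33.2 with anti-PD-1, and 16.2, 24.1 and 29.7 in COMB. Every treated group overlapped CTR, and the highest library was 2.20 times the lowest. Its log2 fold change against CTR was 0.10 for OAT-1746, with a 95% confidence interval of -0.55 to 0.75, -0.07 for anti-PD-1 (-0.72 to 0.58) and -0.33 for COMB (-0.93 to 0.26). Without OAT-1746 replicate 1 the first of these was -0.11, and without anti-PD-1 replicate 1 the next was 0.18. Cxcl3 had 10 and 13 counts in CTR, 2 and 1 in OAT-1746, 2 and 6 with anti-PD-1, and 6, 2 and 7 in COMB, and no fold change is given at this depth. Both CTR libraries held more Cxcl3 counts than any treated library. The 3 genes are close paralogs, only reads with a mapping quality of at least 10 were counted, and how many reads shared between paralogs this removed was not tested. Neutrophil markers, for comparison, summed to 321 and 495 CPM in CTR, 530 and 718 in OAT-1746, 380 and 374 with anti-PD-1, and 453, 459 and 457 in COMB. Csf3r made up most of each sum and was highest in the OAT-1746 libraries (382 and 475 CPM), as were the microglia markers P2ry12 and Tmem119. Ly6g, also on the list, had only 1 to 18 counts per library. In OAT-1746 relative to CTR, 8 of the 9 genes were higher and 1 lower. The sum is thus not a measure of neutrophils alone, and their share was not tested. The list members S100a8, S100a9, Ngp, Camp and Ltf were above both CTR libraries in all 3 COMB libraries. S100a8 was at 40.3, 41.7 and 36.4 CPM in COMB against 12.6 and 25.1 in CTR. Of all genes tested, 12.1% lay above CTR without overlap in COMB. Of the 9 genes, 6 were higher and 3 lower in COMB than in CTR (median log2 fold change 0.79), and the lower ones were Csf3r, Retnlg and Mmp8.

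The interferon-induced genes Cxcl9 (chr5:92321347-92328079) and Cxcl10 (chr5:92346638-92348889) are neighbors on the minus strand of chromosome 5. Their full 250 bases before the start are shown because both hold GAAANNGAA, a core of the interferon-stimulated response element (ISRE), as well as GGNNNTTCC. They are RefSeq promoters (GRCm38.p6, minus strand) at chr5:92328080-92328329 and chr5:92348890-92349139, written in the direction of the gene. Capitals mark both motifs where they lie on the gene's strand: GAAANNGAA at -175 to -167 in Cxcl9 and -213 to -205 in Cxcl10, and GGNNNTTCC at -130 to -122 and -42 to -34 in Cxcl9 and at -158 to -150 and -103 to -95 in Cxcl10.
Cxcl9: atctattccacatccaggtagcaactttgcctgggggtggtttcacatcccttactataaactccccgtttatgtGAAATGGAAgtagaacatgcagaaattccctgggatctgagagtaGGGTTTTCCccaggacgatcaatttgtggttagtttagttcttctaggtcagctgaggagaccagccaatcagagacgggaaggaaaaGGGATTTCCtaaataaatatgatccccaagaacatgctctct
Cxcl10: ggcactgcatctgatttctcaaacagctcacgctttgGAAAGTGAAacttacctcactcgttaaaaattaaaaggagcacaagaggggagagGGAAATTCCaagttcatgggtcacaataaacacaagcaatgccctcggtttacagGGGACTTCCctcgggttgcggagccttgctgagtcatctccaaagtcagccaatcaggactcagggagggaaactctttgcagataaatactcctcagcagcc
GAAANNGAA was found in 7.13% of the 32851 promoters on either strand, and TTCNNNGAA, a core of the gamma-activated sequence (GAS), in 7.02%. None of Cxcl1, Cxcl2, Cxcl3, Cxcl9 and Cxcl10 had a TTCNNNGAA match, and the first 3 had no GAAANNGAA match. The Cxcl10 stretch at -158 to -150 reads GGAATTTCC on the other strand. Cxcl14 had 1 match each of GAAANNGAA and TTCNNNGAA, and Cxcl12 had none of the motifs.

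**Figure D2:**
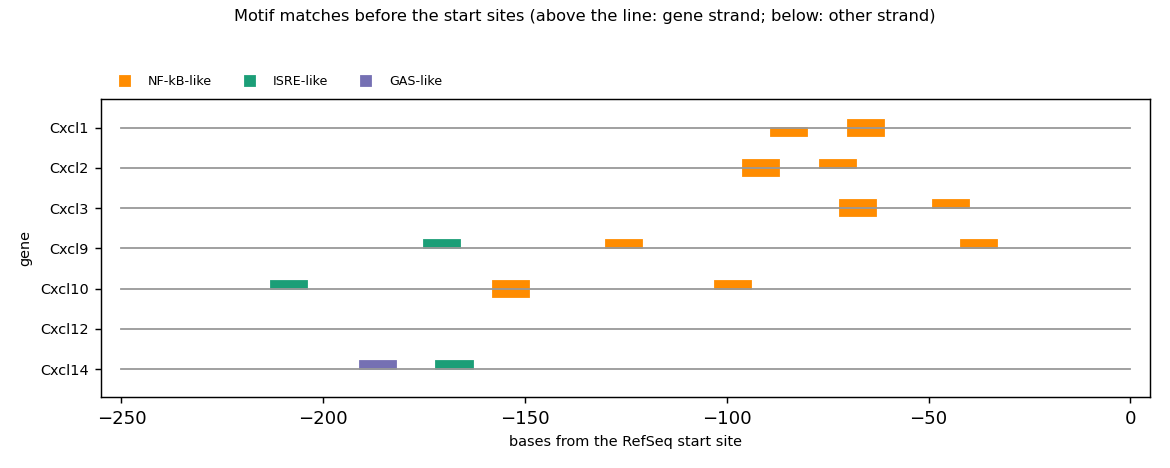
Motif matches in the 250 bases before the RefSeq start sites of 7 ligands (x axis, bases from the start), above the line for the gene strand and below it for the other strand. NF-kB-like GGNNNTTCC matches lie within 100 bases of the start in Cxcl1, Cxcl2 and Cxcl3. Cxcl9 (-42 to -34 and -130 to -122) and Cxcl10 (-103 to -95 and -158 to -150) hold such matches too. The ISRE-like GAAANNGAA matches of Cxcl9 and Cxcl10 lie farther out.

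Cxcl9 was at 1362 and 917 CPM in CTR, 870 and 187 in OAT-1746, 530 and 1085 with anti-PD-1, and 735, 1518 and 1532 in COMB. OAT-1746 replicate 2 was by far the lowest library, and OAT-1746 replicate 1 was just under the lower CTR library. Cxcl10 was at 413 and 319 CPM in CTR, 301 and 88.8 in OAT-1746, 554 and 605 with anti-PD-1, and 288, 313 and 310 in COMB. Its anti-PD-1 libraries were the highest of the 9, its COMB libraries lay closely together just under CTR, and OAT-1746 replicate 2 was again the lowest. The group means of Cxcl10 were 366 ± 66.0 CPM (SD, n = 2) in CTR, 195 ± 150 (n = 2) in OAT-1746, 580 ± 35.9 (n = 2) with anti-PD-1 and 304 ± 13.5 (n = 3) in COMB, and those of Cxcl9 were 1140 ± 314, 529 ± 483, 807 ± 393 and 1262 ± 456. None of the changes of either gene passed edgeR's adjusted p of 0.05. In OAT-1746 relative to CTR, the log2 fold change was -1.11 (SE 0.65, adjusted p = 0.258 in edgeR) for Cxcl9 and -0.91 (SE 0.44, 0.180) for Cxcl10. Without OAT-1746 replicate 1 these were -2.61 and -2.05 and passed in edgeR, and without OAT-1746 replicate 2 they were -0.38 and -0.27. Each omission leaves OAT-1746 as 1 library whose spread is taken from the other groups, and in the former case that library is replicate 2, the one that stands apart. In anti-PD-1 relative to CTR, Cxcl10 gave 0.66 (SE 0.44, adjusted p = 0.967 in edgeR) and Cxcl9 gave -0.50 (SE 0.65, 0.974). When 1 library was left out, the Cxcl9 value ran from -1.11 to -0.07.

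The balance of the pair differed between libraries. The Cxcl9 to Cxcl10 count ratio was 3.30 and 2.87 in CTR, 2.89 and 2.11 in OAT-1746, 0.955 and 1.79 with anti-PD-1, and 2.55, 4.85 and 4.94 in COMB. Both anti-PD-1 libraries had the lowest ratios of the 9, and COMB replicates 2 and 3 the highest. The ratio was chosen after the values were seen, so it carries no test. Cxcl11, an interferon-induced gene of the same family, carries no protein-coding label in the annotation and was not tested. Its values are given as RNA only and not as the expression of a working ligand. It was at 21.5 and 22.2 CPM in CTR, 22.8 and 3.89 in OAT-1746, 24.0 and 37.5 with anti-PD-1, and 18.7, 27.8 and 28.9 in COMB, with OAT-1746 replicate 2 the lowest library here too.

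Cxcl16 (chr11:70453983-70459984), the membrane-bound ligand, was at 948 and 831 CPM in CTR, 474 and 167 in OAT-1746, 521 and 847 with anti-PD-1, and 566, 1021 and 966 in COMB. Both OAT-1746 libraries were below the other 7. The group means were 890 ± 82.5 CPM (SD, n = 2) in CTR, 320 ± 217 (n = 2) in OAT-1746, 684 ± 230 (n = 2) with anti-PD-1 and 851 ± 248 (n = 3) in COMB. The log2 fold change of OAT-1746 relative to CTR was -1.47 (SE 0.47, unadjusted p = 0.0119, adjusted p = 0.0856 in edgeR), and DESeq2 gave an adjusted p of 0.0161. With OAT-1746 replicate 2 as the only library of its group it was -2.42 and passed in edgeR, with the spread taken from the other groups, and with replicate 1 alone it was -0.90. COMB relative to OAT-1746 gave 1.41 (SE 0.44, adjusted p = 0.0581 in edgeR and 0.00603 in DESeq2). That value passed in edgeR with library size scaling alone (1.37, adjusted p = 0.0495), with no filter on low counts (1.43, 0.0347), without COMB replicate 1 (1.60, 0.0381) and with OAT-1746 replicate 2 as the only library of its group (2.36). It did not pass under the other edgeR settings, and without OAT-1746 replicate 2 it was 0.86. The monocyte and macrophage marker sum was likewise lowest in OAT-1746 replicate 2 (618 CPM), where all 6 genes were below every other library. In OAT-1746 replicate 1 the markers were mixed. Tgfbi, most of the sum, was at 2621 CPM there against 5703 and 4298 in CTR, and Ccr2 and Itga4 were also below both CTR libraries. Ly6c2 (929 against 303 and 692) and Plac8 (663 against 345 and 578) were above both. The part of these cells in the Cxcl16 difference was not tested.

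**Figure D3:**
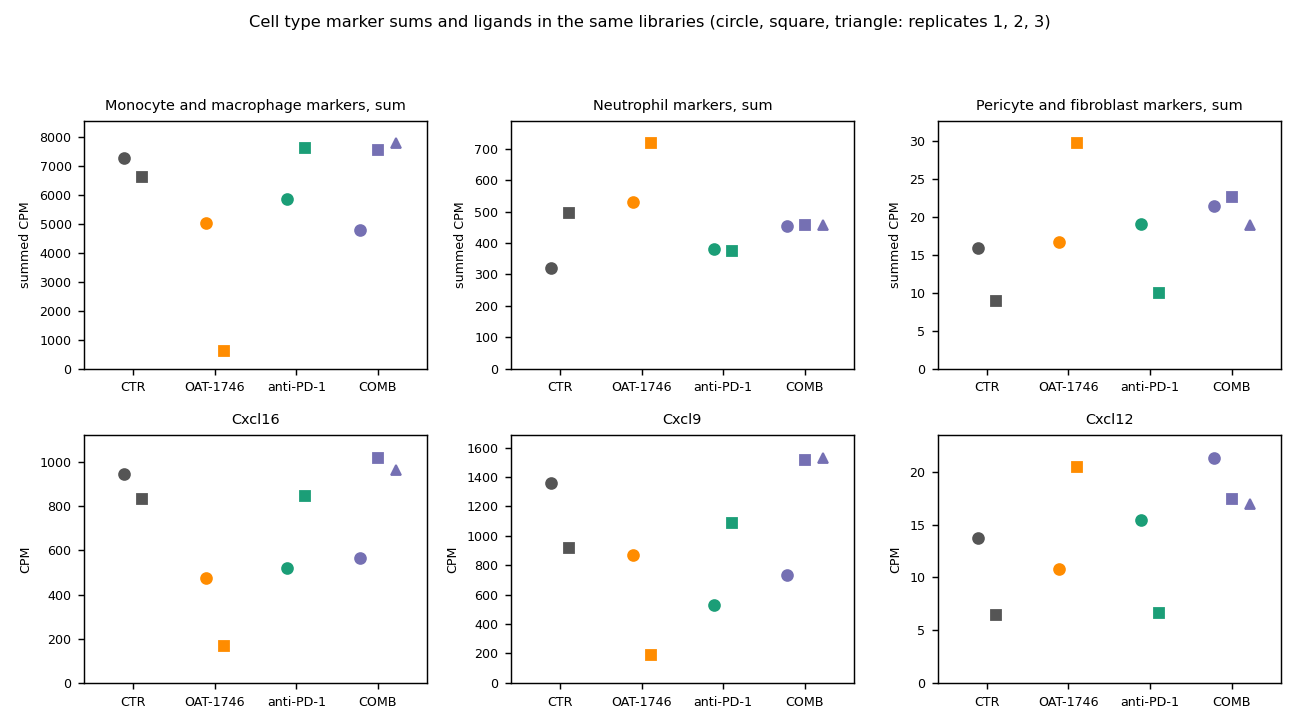
Summed CPM of monocyte and macrophage, neutrophil, and pericyte and fibroblast markers (top) and CPM of Cxcl16, Cxcl9 and Cxcl12 (bottom) in each library by group. OAT-1746 replicate 2 is lowest in the monocyte and macrophage sum (618 CPM), in Cxcl16 (167) and in Cxcl9 (187). It is highest in the neutrophil sum, most of which is Csf3r, and in the pericyte and fibroblast sum.

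Cxcl12 (chr6:117168535-117181367), the ligand of Cxcr4, was at 13.7 and 6.41 CPM in CTR, 10.8 and 20.5 in OAT-1746, 15.4 and 6.65 with anti-PD-1, and 21.4, 17.4 and 16.9 in COMB. The 3 COMB libraries were above both CTR and both anti-PD-1 libraries, and the other groups overlapped. Its log2 fold change in COMB relative to CTR was 0.89 (SE 0.43, adjusted p = 0.767 in edgeR), or 1.56 without CTR replicate 1 and 0.43 without CTR replicate 2. The markers of pericytes and fibroblasts, cells that make Cxcl12 in the brain, summed to 15.9 and 8.94 CPM in CTR, 16.6 and 29.7 in OAT-1746, 19.0 and 9.97 with anti-PD-1, and 21.4, 22.6 and 19.0 in COMB. The sort for CD11b+ cells is meant to leave such cells out. All 5 markers had counts in each library, 4 or 5 of them more than 3, and Rgs5 was the most abundant, at 6.41 to 22.4 CPM. Cxcl12 and the marker sum were both low in CTR replicate 2 and anti-PD-1 replicate 2 and both high in OAT-1746 replicate 2, and the part of such cells in the Cxcl12 level was not tested. Cxcl14 (chr13:56288643-56296551) was at 5.11 and 4.29 CPM in CTR, 2.68 and 2.58 in OAT-1746, 3.07 and 4.73 with anti-PD-1, and 7.12, 4.16 and 4.75 in COMB. Both OAT-1746 libraries were below the other 7. The log2 fold change was -0.84 (SE 0.35, adjusted p = 0.137 in edgeR) in OAT-1746 relative to CTR and 1.02 (SE 0.32, adjusted p = 0.0603 in edgeR and 0.0251 in DESeq2) in COMB relative to OAT-1746.

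For each tested ligand, the genes of at least 5 CPM with the nearest profile were taken by the root mean square difference (rms) of centered log2 CPM over the 9 libraries, where a smaller value is a closer match. Cxcl16 was nearest to Mapkapk3 (rms 0.098), Tmem205 (0.121) and Gsn (0.143), and Cxcl9 to Mapkapk3 (0.200), Ncapg2 (0.206) and Ikbke (0.214). Cxcl9 and Cxcl16 differed from each other by an rms of 0.259, and Cxcl9 and Cxcl10 by 0.691. The neighbors of Cxcl10 were Dck (0.167), Crybg1 (0.173) and Oasl2 (0.175). Cxcl12 was nearest to Rgs5, the pericyte marker (0.140), then Spock2 (0.171) and Itm2a (0.221). The neighbors of Cxcl1 were more distant, Camk2a (0.469), Tnf (0.478) and Ier2 (0.495), against a median rms of 1.06 over all genes compared with it. Cxcl2 (Zfp984, Lbh and Kctd13, 0.176 to 0.183) and Cxcl14 (Pola1, Cad and Acy1, 0.230 to 0.233) varied little, so many genes lay near them, with a median rms of 0.408 and 0.499.

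In OAT-1746 relative to CTR, the interferon-induced Cxcl9 and Cxcl10, and also Cxcl14 and Cxcl16, were lower in both libraries. Cxcl11, which was not tested, was lower only in replicate 2. Among the neutrophil-attracting ligands, Cxcl1 was higher and Cxcl2 overlapped CTR. Cxcl3, also not tested, had fewer counts (2 and 1, against 10 and 13 in CTR). No tested ligand passed edgeR's adjusted threshold. Of the 7 ligands tested, 4 had both OAT-1746 libraries below both CTR libraries, as did 32.1% of all genes tested, and 1 (Cxcl1) had them above, as did 30.8%. edgeR called 0 of 7 at an adjusted p under 0.05, against 0% of the 12538 genes. The smallest adjusted value of any gene was 0.0599. At an unadjusted p under 0.05 edgeR had 2 of 7 (Cxcl14 and Cxcl16), against 32.3%, and DESeq2 called 1 of 7 (Cxcl16), against 16.4%. Of these shares, only that of ligands below CTR without overlap was larger than the share of all genes, over 7 genes. Leaving out OAT-1746 replicate 1 raised the number of called genes from 0 to 3617 of 12847, and leaving out COMB replicate 1 raised it to 278 of 12481.

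In anti-PD-1 relative to CTR, Cxcl10 was the only ligand among the 7 whose libraries did not overlap, 1 of 7 above CTR against 20.6% of all genes, with 0 of 7 below against 16.9%. edgeR called 0 of 7, against 0% of genes. At an unadjusted p under 0.05 it had 0 of 7, against 5.12%, and DESeq2 called 0 of 7, against 0.114%. The log2 fold changes ran from -0.50 for Cxcl9 to 0.66 for Cxcl10. Without CTR replicate 2 the value of Cxcl1 turned from -0.44 to 0.40, and that of Cxcl12 from 0.13 to -0.33. Without anti-PD-1 replicate 1, Cxcl12 was at -0.59, and Cxcl14 moved from -0.26 to 0.01.

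In COMB relative to CTR, Cxcl1 was lower in all 3 COMB libraries than in any other library, while Cxcl9 (0.15, SE 0.59) and Cxcl16 (-0.06, SE 0.42) were close to CTR. The classes did not separate, since Cxcl2 (-0.33) overlapped CTR and Cxcl10 (-0.27, SE 0.39) was below it. Their signs were not fixed, with Cxcl9 at -0.11 without CTR replicate 2 and Cxcl16 at 0.14 without COMB replicate 1. Cxcl12 was above CTR without overlap, 1 of 7 ligands against 12.1% of genes, and Cxcl1 and Cxcl10 were below, 2 of 7 against 15.8%. edgeR called 0 of 7, against 0% of genes. At an unadjusted p under 0.05 it had 1 of 7 (Cxcl1, 0.00595 in edgeR), against 6.58%, and DESeq2 called 0 of 7, against 0.285%. COMB relative to anti-PD-1 showed the same 3 genes without overlap, Cxcl12 above (1 of 7, against 10% of genes) and Cxcl1 and Cxcl10 below (2 of 7, against 16.4%). edgeR called 0 of 7, against 0%, and had 2 of 7 at an unadjusted p under 0.05, against 7.23%, namely Cxcl1 (-1.42, SE 0.54) and Cxcl10 (-0.93, SE 0.39). DESeq2 called 0 of 7, against 0.434%, and gave no adjusted p for Cxcl1. The Cxcl10 value passed in edgeR without OAT-1746 replicate 1 (-0.93, adjusted p = 0.0449) and without OAT-1746 replicate 2 (-0.91, adjusted p = 0.0434), libraries outside this comparison that enter the shared estimate of spread.

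In COMB relative to OAT-1746, Cxcl1 fell, and Cxcl14 and Cxcl16 were higher in all 3 COMB libraries than in both OAT-1746 libraries. Of the 7 ligands, 1 was below without overlap, against 28.9% of genes, and 2 were above, against 25%. edgeR called 1 of 7 (Cxcl1), against 15.8% of genes. It had 3 of 7 at an unadjusted p under 0.05, against 37.1%, and DESeq2 called the same 3 (Cxcl1, Cxcl14 and Cxcl16), against 25.4%. Cxcl9 gave 1.26 (SE 0.61) and Cxcl10 0.64 (SE 0.40), both overlapping between the groups. With OAT-1746 replicate 2 as the only library of its group these were 2.76 and 1.78 and passed edgeR's test, and with replicate 1 alone they were 0.55 and 0.03. The number of genes called ranged from 5 without COMB replicate 3 to 4033 without OAT-1746 replicate 1.

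The interaction, the effect of OAT-1746 with the antibody minus its effect without it, was -2.43 for Cxcl1 (SE 0.73), 1.79 for Cxcl16 (SE 0.64), 1.75 for Cxcl9 (SE 0.89), 1.28 for Cxcl14 (SE 0.47) and -0.02 for Cxcl10 (SE 0.59). edgeR called 0 of 7, against 0.359% of genes. At an unadjusted p under 0.05 it had 3 of 7 (Cxcl1, Cxcl14 and Cxcl16), against 26.2%, and DESeq2 called 1 of 7 (Cxcl16, adjusted p = 0.0404), against 9.5%. Without OAT-1746 replicate 1, Cxcl9 (3.25), Cxcl10 (1.12) and Cxcl16 (2.74) passed edgeR's test, as did 2734 of 12847 genes, and the Cxcl10 value had turned sign. Without OAT-1746 replicate 2, Cxcl9 was at 1.05, Cxcl10 at -0.63 and Cxcl16 at 1.24. For antibody-treated against antibody-free libraries, edgeR called 0 of 7, against 0.00798% of genes, and had 1 of 7 at an unadjusted p under 0.05 (Cxcl1, -1.65, SE 0.37), against 17.5%. DESeq2 called that gene alone, 1 of 7, against 2.55%. Without OAT-1746 replicate 1, edgeR called Cxcl1 (-1.68), Cxcl10 (1.22) and Cxcl16 (0.99) in this comparison, among 1478 of 12847 genes. For any difference among the 4 groups, edgeR called 0 of 7, against 0.191% of genes, and had 3 of 7 at an unadjusted p under 0.05 (Cxcl1, Cxcl10 and Cxcl16), against 27.7%. DESeq2's likelihood ratio test called the same 3 of 7, against 17.7%. All comparisons with CTR share its 2 libraries. Those of OAT-1746 with CTR and of COMB with OAT-1746 share the OAT-1746 libraries on opposite sides, so that opposite signs in them are not separate observations.

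**Figure D4:**
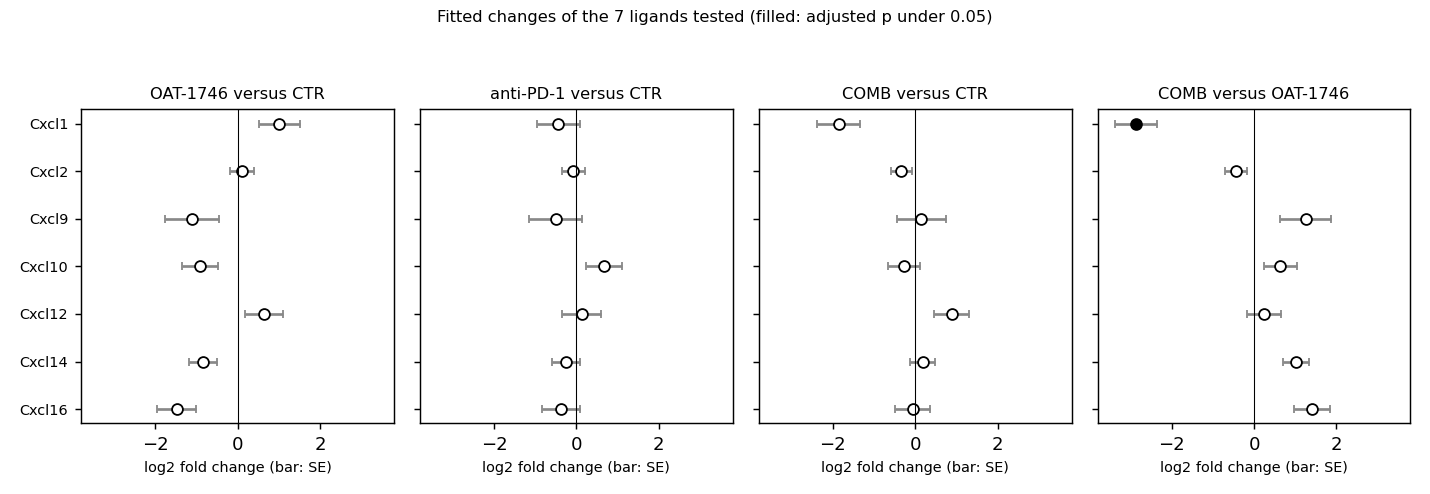
Fitted log2 fold changes (x axis) of the 7 tested ligands in 4 comparisons, with bars for the standard error and a filled point for an edgeR adjusted p under 0.05. The filled point is Cxcl1 in COMB relative to OAT-1746 (-2.87).

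Among the CXC ligands outside the list, Pf4, a platelet and macrophage chemokine, was at 13.4 to 25.8 CPM. Cxcl13, a B cell attractant, ranged from 8 to 176 counts and differed widely within CTR (0.961 and 10.4 CPM) and OAT-1746 (0.466 and 8.81), with 4.08, 3.30 and 4.32 CPM in COMB. Ppbp had 0 to 3 counts per library, and Cxcl5, Cxcl15 and Cxcl17 had 0 in all 9. Among the receptors, Cxcr4 was the most abundant per kilobase, with a mean of 102 CPM. It was at 299 and 252 CPM in CTR, 208 and 101 in OAT-1746, 166 and 270 with anti-PD-1, and 105, 129 and 124 in COMB. The OAT-1746 and COMB libraries were all below both CTR libraries. The log2 fold change in COMB relative to CTR was -1.21 (SE 0.30, unadjusted p = 0.00288, adjusted p = 0.673 in edgeR), beside 0.89 for its ligand Cxcl12. Cxcr3, the receptor of Cxcl9 and Cxcl10, was at 6.07 and 11.7 CPM in CTR, 6.46 and 3.83 in OAT-1746, 4.46 and 3.83 with anti-PD-1, and 5.93, 7.72 and 8.93 in COMB. Its interaction was 1.65 (SE 0.52, adjusted p = 0.115 in edgeR and 0.0416 in DESeq2). Cxcr2, the receptor of the neutrophil-attracting ligands, ranged from 1.72 to 4.24 CPM, Cxcr6, the receptor of Cxcl16, from 0 to 16 counts, and Cxcr1 from 0 to 4 counts. Adam10, which sheds Cxcl16, was at 285 to 453 CPM and Adam17, another sheddase, at 214 to 326. Their log2 fold changes against CTR lay between -0.34 and 0.10, while Dpp4, a peptidase that trims Cxcl10 and Cxcl12, gave -0.49 in OAT-1746, 0.17 with anti-PD-1 and -0.63 in COMB. The OAT-1746 value of Dpp4 came from replicate 2 (7.44 CPM), since replicate 1 (21.1) was above both CTR libraries (20.3 and 19.6). Tests covered 6 of the 8 receptors, and none of these or of the 3 proteases was called by edgeR in any comparison with CTR. In those comparisons edgeR called 0 of all 12538 genes.

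The interferon axis, a list of 20 genes of interferon signaling and response that were all tested, had 4 genes higher and 16 lower in OAT-1746 than in CTR, with a median log2 fold change of -0.42, beside 0.01 over all genes tested. edgeR called 0 of them, with 1 up and 2 down at an unadjusted p under 0.05 (all genes 32.3%), and DESeq2 called 2 of 20, against 16.4% of genes, both down (Ciita, -1.33, and Ifnar1, -0.63). Without OAT-1746 replicate 2 the median was 0.07, with 12 higher and 8 lower, and without OAT-1746 replicate 1 it was -1.13 with 10 genes called, where edgeR called 3617 of all 12847 genes. Against CTR, the list had 16 genes higher and 4 lower in anti-PD-1 (median 0.19, all genes 0.02) and 6 higher and 14 lower in COMB (median -0.14, all genes 0.00). When 1 library was left out, these medians ran from 0.16 to 0.46 in anti-PD-1 and from -0.19 to -0.06 in COMB. In COMB relative to anti-PD-1, the list had 4 genes higher and 16 lower (median -0.21, all genes -0.01). There edgeR called 0 of the 20, with 0 up and 5 down at an unadjusted p under 0.05 (all genes 7.23%), and DESeq2 called 0. Isg15 and Rsad2, antiviral effectors, gave 1.11 (SE 0.65) and 1.05 (SE 0.79) in anti-PD-1, where Cxcl10 gave 0.66. Ifng, the inducer of Cxcl9, had 4 and 3 counts in CTR, 1 and 1 in OAT-1746, 12 and 4 with anti-PD-1, and 6, 12 and 10 in COMB, near the floor. edgeR called it in COMB relative to OAT-1746 (3.33, SE 0.91, adjusted p = 0.0425), 1 of the 20 against 15.8% of genes, and DESeq2 gave no adjusted p for it. Only COMB replicates 2 and 3 and anti-PD-1 replicate 1 held at least 10 counts, the filter's minimum. The gene thus entered the tests through libraries where it was high, COMB among them, so no conclusion is drawn from the call. The list's median in COMB relative to OAT-1746 was 0.17, or -0.16 without OAT-1746 replicate 2 and 0.88 without OAT-1746 replicate 1. With COMB replicate 1 left out edgeR called 1 of the 20 (2923 of 12481 genes), and with COMB replicate 2 or 3 left out 0 (14 of 12514 and 5 of 12502 genes). It called none of the list with a CTR library, an anti-PD-1 library or OAT-1746 replicate 2 left out.

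The NF-kB and inflammatory axis, a list of 15 genes that were all tested, had 11 genes higher and 4 lower in OAT-1746 than in CTR (median 0.32, or 0.17 without OAT-1746 replicate 2), and 2 higher and 13 lower in COMB than in CTR (median -0.44). edgeR called 0 of them in both comparisons, with 4 up and 1 down (all genes 32.3%) and with 0 up and 4 down (all genes 6.58%) at an unadjusted p under 0.05, and DESeq2 called 3 of the 15, all up, against 16.4% of genes, and 3, all down, against 0.285%. For OAT-1746 relative to CTR, edgeR called 8 without OAT-1746 replicate 1, where it called 3617 of 12847 genes, and 2 without COMB replicate 1 (278 of 12481). In COMB relative to anti-PD-1, the list had 1 gene higher and 14 lower (median -0.67, all genes -0.01). edgeR called 0 of the 15 there, with 0 up and 7 down at an unadjusted p under 0.05 (all genes 7.23%). DESeq2 called 4, all down, against 0.434% of genes. In COMB relative to OAT-1746, edgeR called 7 of the 15, against 15.8% of all genes, and all 7 were lower in COMB: Tnf, Il1a, Nfkbia, Nfkbiz, Tnfaip3, Ccl3 and Ccl4. The list had 3 genes higher and 12 lower, with 2 up and 9 down at an unadjusted p under 0.05 (all genes 37.1%), and DESeq2 called 1 up and 7 down, against 25.4%. The list's median was -0.57, beside 0.00 over all genes. Without OAT-1746 replicate 2 and without COMB replicate 2 it called 2 of the 15 (27 of 12837 and 14 of 12514 genes), and without COMB replicate 3 it called 1 (5 of 12502 genes). Nfkbiz, an inducible NF-kB cofactor, was at 253 and 250 CPM in CTR, 580 and 1013 in OAT-1746, 230 and 368 with anti-PD-1, and 98.6, 93.2 and 103 in COMB. Tnf, the inflammatory cytokine, was at 123 and 151 CPM in CTR, 176 and 167 in OAT-1746, 95.0 and 150.0 with anti-PD-1, and 46.5, 43.2 and 36.9 in COMB. Both genes had OAT-1746 above CTR and COMB below every other library, the order also seen for Cxcl1. In COMB relative to OAT-1746, the log2 fold change was -3.02 (SE 0.26, adjusted p = 0.00322 in edgeR) for Nfkbiz and -2.02 (SE 0.21, 0.00528) for Tnf, beside -2.87 for Cxcl1 and -0.43 (SE 0.26) for Cxcl2. The interaction passed for the same pair, -3.27 for Nfkbiz (adjusted p = 0.0289 in edgeR) and -1.86 for Tnf (0.0495), 2 of the 15 against 0.359% of genes, and the list's median interaction was -1.32, or -0.64 without anti-PD-1 replicate 2 and -0.69 without OAT-1746 replicate 2. With DESeq2 size factors in edgeR, or with library size scaling alone, 1 of the 15 was called (39 and 24 of 12538 genes). No gene of the list was called for the interaction without CTR replicate 1, CTR replicate 2, anti-PD-1 replicate 2, COMB replicate 2 or COMB replicate 3. In those fits no other gene was called either. Without COMB replicate 1, 3 of the 15 were called (424 of 12481 genes). In the main fit of the interaction, edgeR had 0 up and 11 down at an unadjusted p under 0.05 (all genes 26.2%). DESeq2 called 7 of the 15 for it, all down, against 9.5% of genes. Without OAT-1746 replicate 1 the list's median interaction was -1.41. Il1b, another inducer of these ligands, went the other way, with -1.28 (SE 0.68) in OAT-1746 relative to CTR and 0.55 (SE 0.62) in COMB relative to OAT-1746.

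**Figure D5:**
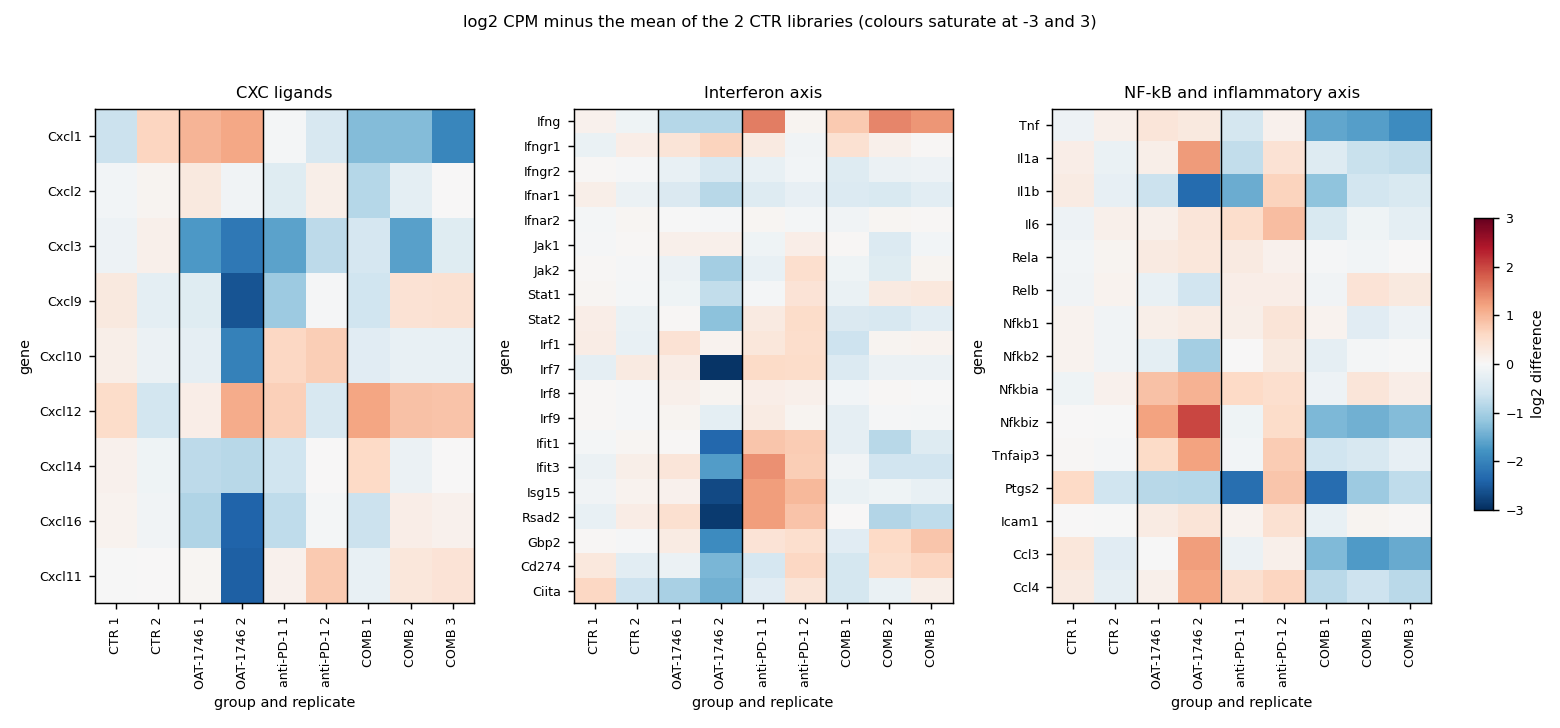
Log2 CPM minus the CTR mean for the ligands, the interferon axis and the NF-kB axis (rows) in each library (columns), red above and blue below. OAT-1746 replicate 2 is blue across Cxcl9, Cxcl10, Cxcl16 and most response genes of the interferon axis, and the 3 COMB libraries are blue for Cxcl1, Tnf, Nfkbiz and Ccl3.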

How the data were processed

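CD11b+ cells were profiled in 9 libraries by stranded poly-A RNA sequencing. According to the authors, Trimmomatic removed adapters and poor bases, STAR mapped the reads to the mm10 genome, Picard handled duplicates, and HTSeq assigned reads of mapping quality at least 10 to genes on the reverse strand. The deposited values are raw counts per gene. Genes were named from the GENCODE M21 reference chromosome annotation, which covered 53620 of 53801 genes, and the 21890 protein-coding ones were kept. The authors' own annotation release is not given. edgeR 4.0.16 (limma 3.58.1, R 4.3.3) fitted 4 group means to all 9 libraries after TMM scaling and filterByExpr (minimum count 10), which left 12538 genes. Quasi-likelihood F tests were adjusted over these genes (Benjamini-Hochberg), and adjusted p under 0.05 was called. The common biological coefficient of variation was 0.214. DESeq2 1.42.0 was the alternative, with scaling, filter, gene type, group, block and leave-one-out alternatives. Both tools were also run on simulated data, and the outcome is not given here. The quasi-likelihood setting was changed to the version's default (legacy=TRUE) after results with legacy=FALSE had been seen. The annotation was likewise changed from the primary assembly. The motifs, the sequences shown, the Cxcl9 to Cxcl10 ratio and the alternatives for list medians were chosen after values had been seen. The members and lists were chosen with earlier results of these data known. Python 3.11.15 and matplotlib 3.10.9 were used for the sequences and figures.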

Additional observations from a re-analysis of the deposited data

How the results depend on the processing

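Groups had 2 or 3 libraries. The lower Cxcl9, Cxcl10 and Cxcl16 in OAT-1746 were largest in replicate 2 and the lower interferon axis was seen only there, and the cell composition of that library and the treatment cannot be told apart. Of 959 alternative values of the ligands over 20 settings, 26 had the opposite sign (1 of these passed where the main value did not), 21 more passed where the main value did not and 5 no longer passed. DESeq2 called 1972 genes for OAT-1746, 14 for anti-PD-1 and 35 for COMB relative to CTR, 47 for COMB relative to anti-PD-1, 3062 for COMB relative to OAT-1746, 1053 for the interaction, 320 for the antibody and 2137 for any difference. Without the low-count filter, edgeR called 587 for OAT-1746, 2 for COMB relative to CTR, 2 relative to anti-PD-1, 146 for the interaction, 9 for the antibody and 361 for any difference. For the interaction it called 24 with library size scaling alone and 18 with all gene types. A block for replicate number, which drops COMB replicate 3, left 2 for COMB relative to OAT-1746 and 0 for the interaction, 0 for the antibody and 0 for any difference, with Cxcl10 at 0.06 for the interaction. With legacy=FALSE, an alternative added after seeing the data, the antibody had 0. Fitting only the groups compared gave 5, 2 and 30 for COMB relative to CTR, anti-PD-1 and OAT-1746. Leaving out 1 library at a time gave 0 to 3617 genes for OAT-1746 relative to CTR, 0 to 52 for COMB relative to anti-PD-1, 5 to 4033 for COMB relative to OAT-1746, 0 to 2734 for the interaction, 0 to 1478 for the antibody and 0 to 2381 for any difference. Over the same omissions, log2 fold changes that crossed 0 ran as follows. For OAT-1746 relative to CTR, Cxcl2 ran from -0.106 to 0.293 and the interferon axis median from -1.13 to 0.0661. For anti-PD-1, Cxcl1 ran from -0.969 to 0.402, Cxcl2 from -0.382 to 0.181, Cxcl12 from -0.593 to 0.778, Cxcl14 from -0.621 to 0.014 and the NF-kB median from -0.00666 to 0.457. For COMB relative to CTR, Cxcl9 ran from -0.114 to 0.481, Cxcl14 from -0.0992 to 0.34 and Cxcl16 from -0.216 to 0.137. For COMB relative to anti-PD-1, Cxcl2 ran from -0.512 to 0.0504. For COMB relative to OAT-1746, Cxcl12 ran from -0.138 to 0.792 and the interferon axis median from -0.157 to 0.884. For the interaction, Cxcl10 ran from -0.633 to 1.12, Cxcl12 from -0.517 to 0.845 and the interferon axis median from -0.287 to 0.694. For the antibody, Cxcl12 ran from -0.17 to 0.52. The ligand alternatives for COMB relative to anti-PD-1, COMB relative to OAT-1746 and the interaction, and those for list medians, were added after the data had been seen.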
